A study of Mus musculus with 9 samples.

Results

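The mesenchymal cells that express *Pax1* were examined in single-cell RNA-seq libraries of mouse forelimb buds at E10.75 (37 to 39 somites). A barcode was taken as a *Pax1* cell when it held more than 2500 genes, fewer than 200000 UMIs (unique molecular identifiers, which count captured transcripts) and under 10% mitochondrial UMIs, at least 3 UMIs of *Prrx1*, a transcription factor of limb mesenchyme, at least 3 UMIs of *Pax1*, and no UMI of *Lbx1*, *Epcam*, *Cdh5*, *Tyrobp* or *Shh*. The first 4 of these last genes mark muscle progenitors, epithelium, endothelium and myeloid cells, while *Shh* marks the posterior organizer of the limb bud. The rule found 1651 *Pax1* cells, which were 4.95% of the 33384 mesenchymal cells that met it apart from *Pax1*, and 3.15% of the 52432 barcodes that passed the filters on genes, UMIs and mitochondrial UMIs, out of 133086 deposited barcodes. Of these mesenchymal cells, 29686 held no UMI of *Pax1* and are called *Pax1*-free mesenchyme, and 2047 held 1 or 2.

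There were 3 libraries each of wild-type (Wt) embryos and of embryos homozygous for *EC1CRM8*Δ/Δ (*E1C8*Δ/Δ) or *EC1CRM5*Δ/Δ (*E1C5*Δ/Δ). Both alleles remove enhancers of *Grem1* from the germline. *Grem1* encodes a protein that is secreted and blocks BMPs, the bone morphogenetic proteins. The alleles share the loss of the EC1 enhancers and differ in the further element removed, CRM8 or CRM5. All embryos were on a Swiss Albino background, no group carried a Cre driver, and each library was made from a pair of forelimb buds. The labels do not say whether the embryos of a group came from separate litters, so that p-values measure only the spread between these libraries.

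*Pax1* encodes a paired-box transcription factor. In the trunk it acts in the sclerotome, from which vertebrae and intervertebral discs form, and in the forelimb bud it is expressed in anterior and proximal mesenchyme close to the body wall, the region of the future shoulder girdle. *Alx4* encodes a homeodomain protein that keeps the posterior programme out of the anterior limb bud, *Runx2* encodes the transcription factor needed to form osteoblasts, and *Hoxb5* is a *Hox* gene with a role in placing the forelimb and shoulder along the body.

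The *Pax1* cells were spread unevenly over the libraries. Wt replicates 1 to 3 held 176, 326 and 47 of them, *E1C8*Δ/Δ replicates held 26, 472 and 255, and *E1C5*Δ/Δ replicates held 133, 68 and 148. Their UMIs summed per library to a minimum of 1264053 in *E1C8*Δ/Δ replicate 1 and a maximum of 19561212 in Wt replicate 2. The median depth per *Pax1* cell was 40702 to 62406 UMIs in Wt, 49338 to 53278.5 in *E1C5*Δ/Δ and 22855.5 to 35983 in *E1C8*Δ/Δ libraries, so that *E1C8*Δ/Δ cells were the shallowest and did not overlap in depth with the other genotypes. All 3 Wt libraries had low *Xist*, whereas *Xist* was high in replicates 1 and 2 of *E1C8*Δ/Δ and in replicates 1 and 3 of *E1C5*Δ/Δ, so that embryo sex moved partly with genotype. No *Pax1* cell barcode was shared among the 36 pairs of libraries, and at most 0.497% of the smaller library's passing barcodes were shared within a pair. Doublet scoring called 297 *Pax1* cells (18.0%), from 0 of 26 in *E1C8*Δ/Δ replicate 1 to 31.8% in *E1C8*Δ/Δ replicate 3. The share of barcodes called in a library was set by its number of deposited barcodes. Among all mesenchymal cells, 1.01% were called in *E1C8*Δ/Δ replicate 1 and 19.5% in *E1C8*Δ/Δ replicate 3. The share called was higher in *Pax1* cells than in all mesenchymal cells, except in *E1C8*Δ/Δ replicate 1 and *E1C5*Δ/Δ replicate 1.

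The promoters of *Pax1* itself, of *Runx2*, the gene other than *Pax1* with the largest ratio between *Pax1* cells and *Pax1*-free mesenchyme among those at 20 CPM or more, and of *Rspo4*, whose change in the mutants differed between these populations, are shown as RefSeq gives them on GRCm38.p6. Each run is the 250 bases before the annotated start, in the direction of the gene. *Pax1* lies on the plus strand at chr2:147364744-147364993, *Runx2* on the minus strand at chr17:44814628-44814877 and *Rspo4* on the plus strand at chr2:151842677-151842926. Capitals mark the RUNX motif TGTGGT, which reads ACCACA on the other strand.
Pax1: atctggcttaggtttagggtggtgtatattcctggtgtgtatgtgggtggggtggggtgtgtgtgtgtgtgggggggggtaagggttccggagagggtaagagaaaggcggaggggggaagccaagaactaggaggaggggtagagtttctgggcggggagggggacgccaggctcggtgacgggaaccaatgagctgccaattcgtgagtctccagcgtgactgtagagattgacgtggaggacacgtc
Runx2: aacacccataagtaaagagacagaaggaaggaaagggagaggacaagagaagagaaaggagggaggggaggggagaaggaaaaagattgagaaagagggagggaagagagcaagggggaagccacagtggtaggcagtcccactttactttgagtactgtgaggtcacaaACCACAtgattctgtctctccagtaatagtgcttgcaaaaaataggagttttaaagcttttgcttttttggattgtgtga
Rspo4: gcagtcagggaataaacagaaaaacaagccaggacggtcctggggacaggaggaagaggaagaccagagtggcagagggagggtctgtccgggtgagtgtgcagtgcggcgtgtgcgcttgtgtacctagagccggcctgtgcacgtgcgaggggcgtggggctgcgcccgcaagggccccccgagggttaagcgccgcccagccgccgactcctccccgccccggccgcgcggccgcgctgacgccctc

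The *Runx2* window held 1 RUNX motif, and 14.0% of 32851 mouse promoters of this length held at least 1 on either strand. Neither the paired homeodomain motif of TAAT, any 3 bases and ATTA, present in 0.463% of promoters, nor the PBX and HOX motif TGATTNAT, present in 2.82%, was found in these 3 windows. These matches describe the letters only and no binding was measured. The GC content was 58.8% for *Pax1*, 44.8% for *Runx2* and 69.6% for *Rspo4*, against a median of 52.4% over all promoters.

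Since the cells were selected on their *Pax1* UMIs, the values that follow on *Pax1* cells against *Pax1*-free mesenchyme are descriptions and carry no test. The UMIs of all *Pax1* cells of a library were summed per gene and divided by their total to give CPM. *Pax1* reached a median of 6 UMIs and at most 142 UMIs per *Pax1* cell. The lowest class, at exactly 3 UMIs, held 369 cells (22.4%), and 450 cells (27.3%) held 10 or more.

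*Alx4*, *Runx2* and *Hoxb5*, the markers by which the label anterior proximal was given, were each higher in *Pax1* cells than in *Pax1*-free mesenchyme in all 9 libraries. A list of anterior transcription factors did not go this way as a whole. Of its 10 genes at 5 CPM or more in either population, 3 were higher and 5 lower in all 9 libraries. The median log2 ratio of that list was -0.62. *Runx2* averaged 44.6 CPM in *Pax1* cells and 3.25 CPM in *Pax1*-free mesenchyme, a median log2 ratio of 3.49 over libraries (range 2.64 to 3.86). *Hoxb5* averaged 52.3 against 5.23 CPM, with a median log2 ratio of 3.04, and *Alx4* averaged 63.9 against 18.0 CPM, with a ratio of 1.72. With every cell thinned to 10000 UMIs and 40 shallower *Pax1* cells left out, a median of 46.5% of *Pax1* cells held *Alx4*, 30.6% held *Runx2* and 36.4% held *Hoxb5*, against 14.0%, 2.99% and 4.29% of *Pax1*-free cells. Unthinned, the median shares were 80.8%, 63.2% and 75.2% against 28.1%, 7.16% and 12.7%.

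Detection of the 3 markers in the same cell depended on depth. After thinning, a median of 6.52% of *Pax1* cells (3.6% to 13.2% over libraries) held all 3 of *Alx4*, *Runx2* and *Hoxb5*, and 23.5% (15.4% to 41.3%) held none. In *Pax1*-free mesenchyme 0.215% held all 3 and 81.0% held none. Unthinned, the share with all 3 was 49.4% against 1.39%.

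The levels of these genes were higher in cells with 10 or more *Pax1* UMIs than in cells with none, in all 9 libraries. From cells with no *Pax1* UMI to cells with 10 or more, the median CPM over libraries went from 18.0 to 65.4 for *Alx4*, from 3.58 to 50.8 for *Runx2* and from 5.13 to 63.5 for *Hoxb5*. The levels did not climb at every step. *Runx2* in *E1C5*Δ/Δ replicates 1 to 3 was at 39.4, 27.4 and 51.4 CPM in the 38, 21 and 49 cells with 4 to 5 *Pax1* UMIs. In the 25, 6 and 17 cells with 10 or more it was at 24.5, 21.4 and 35.1 CPM. In *E1C8*Δ/Δ replicates 1 and 3 it also fell between these classes, from 120 to 51.7 CPM (5 and 11 cells) and from 34.7 to 29.3 CPM (59 and 73 cells). It rose in *E1C8*Δ/Δ replicate 2 and in every Wt library. Over the same classes *Hoxd11*, which patterns the middle and distal limb, went from 236 to 42.7 CPM and *Hoxa11* from 69.0 to 9.37 CPM. *Sox9*, the regulator of early cartilage, was at 238 CPM in cells without *Pax1* and at 150 CPM in cells with 10 or more, with overlapping ranges of 133 to 294 and 21.4 to 288 CPM.

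**Figure D1:**
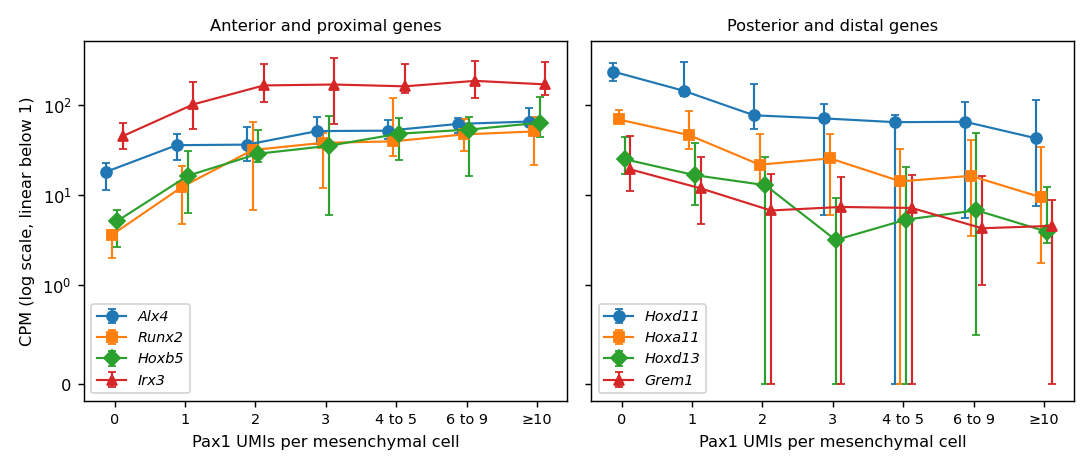
Median CPM over 9 libraries (points) with the lowest and highest library (bars) for 8 genes, by the number of *Pax1* UMIs per mesenchymal cell, on a log axis that is linear from 0 to 1 CPM. *Alx4*, *Runx2*, *Hoxb5* and *Irx3* lie higher and *Hoxd11*, *Hoxa11*, *Hoxd13* and *Grem1* lower in cells with 10 or more *Pax1* UMIs than in cells with none.

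The threshold of 3 UMIs cut through a range of levels. The 494 cells with 2 *Pax1* UMIs, just outside, had median levels of 36.2 CPM for *Alx4*, 31.6 CPM for *Runx2* and 28.7 CPM for *Hoxb5*. The 369 cells with 3 UMIs, just inside, had 51.3, 37.9 and 35.1 CPM. *Alx4* was higher at 3 than at 2 UMIs in 8 of 9 libraries, *Runx2* in 6 and *Hoxb5* in 5, while *Hoxd13*, a gene of the digit-forming distal mesenchyme, was higher at 3 UMIs in none, with medians of 12.8 and 3.14 CPM. Some libraries held few such cells, with 8 at 2 UMIs and 2 at 3 UMIs in *E1C8*Δ/Δ replicate 1. Wt replicate 3 held 6 and 5.

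The genes with the largest ratios to *Pax1*-free mesenchyme were mostly *Hox* and *Irx* genes. Of 9641 genes at 5 CPM or more in either population, 698 (7.24%) were higher and 869 (9.01%) lower in *Pax1* cells in all 9 libraries. The 15 with the largest median log2 ratios among those at 20 CPM or more were *Runx2*, *Hoxb6* (3.08), *Hoxc5* (3.06), *Hoxb5*, *Gria2* (3.03), *Hoxc4* (2.42), *Hoxb4* (2.39), *Hotairm1* (2.35), *Irx5* (2.25), *Jaml* (2.24), *Optn* (2.17), *Emx2* (2.17), *Hoxb3* (2.08), *Irx3* (2.07) and *Plxna2* (2.06). *Emx2* encodes a homeodomain protein needed to form the scapular blade, *Irx3* and *Irx5* encode Iroquois proteins of the early proximal and anterior limb bud, *Gria2* encodes a subunit of AMPA glutamate receptors, and *Hotairm1* is a long noncoding RNA of the *HoxA* cluster.

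Most *Hox* genes divided by their position in the clusters. Of the 17 anterior and thoracic *Hox* genes at 5 CPM or more, 15 were higher in *Pax1* cells in all 9 libraries, with a median log2 ratio of 1.67 over the list. On that list 1 gene, *Hoxd8*, was lower in all 9 libraries, with a median log2 ratio of -0.74. All 9 posterior *Hox* genes of the limb at that level were lower in all 9 libraries, with a median of -1.78. *Hoxd11* averaged 59.0 CPM in *Pax1* cells and 231 CPM in *Pax1*-free mesenchyme, *Hoxa11* averaged 18.1 against 70.3 CPM and *Hoxd13* 6.36 against 26.2 CPM. The list medians compare with -0.00921 over all 9641 genes.

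Proximal genes and genes of retinoic acid signalling, which specifies the proximal limb, were mostly higher. Of 16 on that list at 5 CPM or more, 10 were higher and 2 lower in all libraries, with a median log2 ratio of 0.77. *Rarb*, a retinoic acid receptor and target, averaged 40.8 against 11.5 CPM and *Meis2*, a proximal homeodomain factor, averaged 478 against 230 CPM. *Cyp26b1*, the enzyme that clears retinoic acid in the distal limb bud, averaged 20.0 against 65.1 CPM, a log2 ratio of -1.68. Among the 16 regulators of the shoulder girdle, 10 were higher and 2 lower in all libraries, and the lower ones were *Tbx15* and *Tbx18*.

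Of 12 hedgehog pathway genes at 5 CPM or more, 4 were lower and 2 higher in all libraries, and of 7 distal progenitor genes 6 were lower. *Ptch1*, the receptor and target of SHH, averaged 18.5 against 49.3 CPM, and *Gli1*, another target, averaged 3.23 against 9.73 CPM. *Hand2*, a posterior transcription factor, averaged 53.9 against 131 CPM. The FGF pathway list had 9 of 14 genes lower and none higher in all libraries, among them *Dusp6*, the feedback phosphatase of FGF signalling, at 38.3 against 69.5 CPM. *Grem1* averaged 6.39 against 23.1 CPM, a log2 ratio of -1.76. Of BMP response genes, 5 of 11 were higher and 1 lower in all libraries, with *Id1* at 456 against 303 CPM and *Tbx2* at 50.9 against 17.7 CPM.

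**Figure D2:**
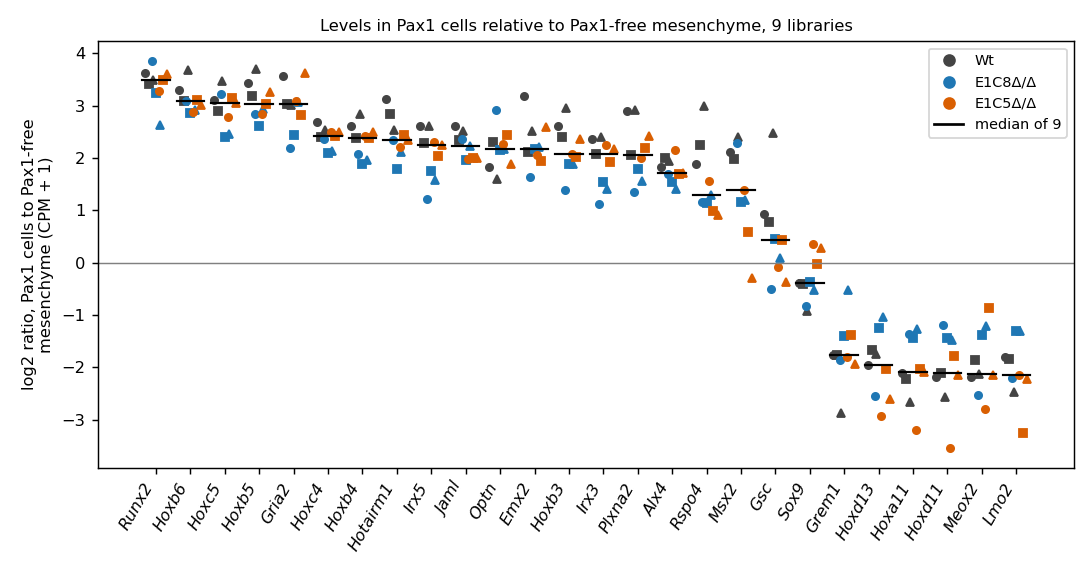
Log2 ratio of CPM + 1 in *Pax1* cells to *Pax1*-free mesenchyme for 26 genes, with 1 point per library coloured by genotype, its shape giving the replicate, and a black line at the median of 9 libraries. *Runx2* and the anterior *Hox* genes lie above 0 and the posterior *Hox* genes and *Grem1* below 0 in all 9 libraries, while *Gsc*, *Msx2* and *Sox9* lie on both sides.

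Markers of other mesenchymal populations were found in part of the *Pax1* cells. *Gsc*, a homeodomain gene of proximal mesenchyme, was found after thinning in 28.8% of *Pax1* cells at the median but in 12.5% to 63.0% over libraries, against 20.6% (12.9% to 32.3%) of *Pax1*-free cells. Unthinned, the shares were 47.1% and 34.8%. With a cut of 3 UMIs, 28.6% of *Pax1* cells held *Gsc*, 29.1% held both *Sox9* and *Col2a1*, the early cartilage genes, and 62.2% held both *Asb4* and *Msx1*, genes of peripheral progenitors. The shares in *Pax1*-free mesenchyme were 16.1%, 19.2% and 29.5%. *Pax1* cells were deeper than *Pax1*-free cells in every library, by a ratio of medians of 1.12 to 1.72, and these 3 shares were not thinned. After thinning, *Sox9* was found in 61.5% of *Pax1* cells and 64.7% of *Pax1*-free cells at the median, *Col2a1* in 34.6% and 28.6%, *Asb4* in 89.0% and 83.4%, and *Msx1* in 70.1% and 43.0%. The median log2 ratios of CPM were -0.39 for *Sox9*, -0.03 for *Col2a1*, -0.15 for *Asb4* and 0.49 for *Msx1*.

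Markers of other cell types were examined as summed lists. Of 8 sclerotome markers *Nkx3-2* and *Uncx* had 0 UMIs in all *Pax1* cells, *Pax9* was found in none of the thinned *Pax1* cells at the median and in 0.444% at most, and the list summed to 36.4 to 68.0 CPM over libraries, against 46.5 to 88.8 CPM in *Pax1*-free mesenchyme. Most of that sum came from *Tcf15*, which was higher in *Pax1* cells in all 9 libraries (41.7 against 20.5 CPM), and from *Meox2*, which was lower in all 9 (12.5 against 46.2 CPM). The summed lists reached at most 8.70 CPM for muscle progenitors, 13.8 CPM for epithelium, 24.5 CPM for endothelium, 4.30 CPM for myeloid cells and 6.99 CPM for neural crest and Schwann cells, and *Lbx1*, *Epcam*, *Cdh5* and *Tyrobp* were at 0 by the rule. Erythroid genes, which free RNA of lysed red blood cells brings into droplets, summed to 861 to 11583 CPM in Wt, 218 to 9386 CPM in *E1C8*Δ/Δ and 553 to 3497 CPM in *E1C5*Δ/Δ *Pax1* cells, and their part in the results was not tested. The 7 markers of limb mesenchyme summed to 1295 to 1662 CPM.

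Cells of other lineages gave the background of *Pax1* itself. At least 1 UMI of *Pax1* was found in 3.05% of 1082 muscle progenitors, 3.01% of 532 epithelial, 2.01% of 598 endothelial, 2.49% of 201 myeloid and 1.94% of 2063 erythroid cells, with median depths of 18976 to 41625 UMIs, against 11.1% of mesenchymal cells. At least 3 UMIs were found in 1 endothelial cell and in none of the others, for which the counts allow shares of up to 0.145% in erythroid, 0.277% in muscle, 0.564% in epithelial and 1.49% in myeloid cells. *Hoxb5* was no such marker on its own, since 44.6% of endothelial cells held it.

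*Grem1*, whose enhancers were deleted, was scarce in *Pax1* cells of all genotypes. It was at 12.6, 8.44 and 3.37 CPM in Wt, 2.37, 4.15 and 9.40 CPM in *E1C8*Δ/Δ and 4.79, 6.05 and 6.35 CPM in *E1C5*Δ/Δ libraries, and the genotypes overlapped. Its log2 fold change in the mutants was -0.54 ± 0.31 (SE) and did not pass the test (edgeR, adjusted p = 0.488). In *Pax1*-free mesenchyme of the same libraries it fell by 1.10 on the log2 scale (log2 fold change -1.10, edgeR, adjusted p = 0.00522). *Grem1* was not among the genes for which the difference between these changes passed.

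The study asked how the loss of *Grem1* enhancers alters the mesenchyme. The share of *Pax1* cells among mesenchymal cells was 4.50%, 6.02% and 8.33% in Wt replicates 1 to 3, 6.55%, 7.39% and 4.32% in *E1C8*Δ/Δ and 4.86%, 4.32% and 2.28% in *E1C5*Δ/Δ. The highest share was in Wt replicate 3 and the lowest in *E1C5*Δ/Δ replicate 3, and the genotypes overlapped. The 95% Wilson intervals, which cover counting error only, ran from 1.94% to 2.67% in *E1C5*Δ/Δ replicate 3, from 6.32% to 10.9% in Wt replicate 3 and from 4.51% to 9.42% in *E1C8*Δ/Δ replicate 1. Wt libraries had a mean share of 6.28% ± 1.93 (SD, n = 3), the mean of *E1C8*Δ/Δ was 6.09% ± 1.58 (SD, n = 3), and that of *E1C5*Δ/Δ was 3.82% ± 1.36 (SD, n = 3).

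The mutant libraries averaged 1.33 percentage points less than Wt (difference -1.33), which did not pass a two-sided exact permutation test (p = 0.345 over 84 splits, the smallest possible being 0.0119). Single mutants against Wt could not pass with 3 against 3 libraries, and their differences were -0.197 points for *E1C8*Δ/Δ and -2.46 points for *E1C5*Δ/Δ. With each cell thinned to 10000 UMIs and 1 UMI of *Pax1* required, the shares were 5.65%, 6.63% and 9.07% in Wt, 8.99%, 11.5% and 6.29% in *E1C8*Δ/Δ and 6.30%, 4.72% and 3.09% in *E1C5*Δ/Δ (6.33% to 16.0% over libraries with all UMIs), and the difference was -0.307 points (exact permutation p = 0.857). Requiring 2 thinned UMIs turned the difference to 0.111 points (exact permutation p = 0.940). In these thinned settings the differences from Wt were 1.80 and 1.78 points for *E1C8*Δ/Δ and -2.41 and -1.56 points for *E1C5*Δ/Δ. Without Wt replicate 3 the main difference was -0.304 points (exact permutation p = 0.893).

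**Figure D3:**
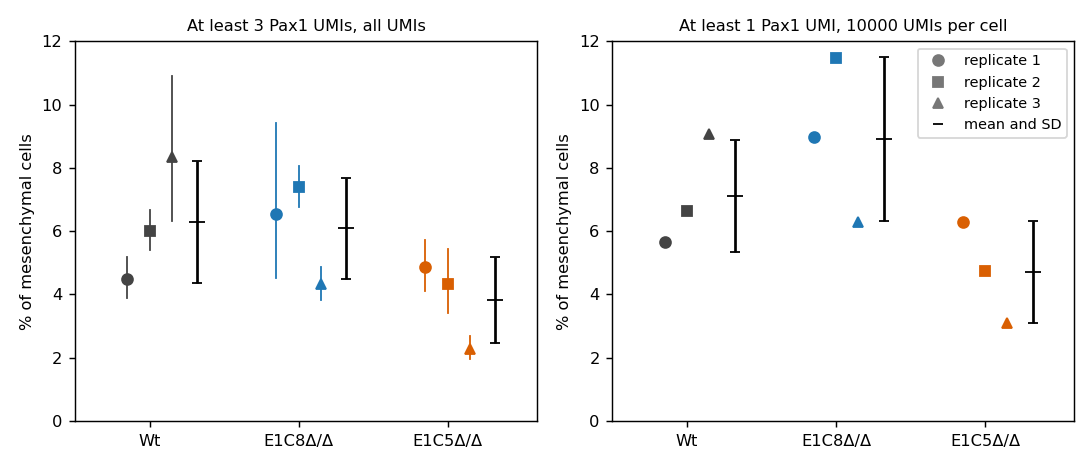
Share of mesenchymal cells that were *Pax1* cells in each library, with all UMIs and at least 3 *Pax1* UMIs (left, thin bars are 95% Wilson intervals) and after thinning to 10000 UMIs with at least 1 *Pax1* UMI (right), with the mean and SD of 3 libraries in black. The 3 genotypes overlap in both panels, with means of 6.28%, 6.09% and 3.82% on the left and 7.12%, 8.92% and 4.70% on the right.

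The level of *Pax1* in all mesenchymal cells together does not depend on a threshold per cell. Between the mutants and Wt it differed by a log2 fold change of -0.73, which did not pass edgeR's quasi-likelihood test (Benjamini-Hochberg adjusted p = 0.308). Without Wt replicate 3 the value was -0.14 (adjusted p = 0.864).

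In the comparison of the mutants with Wt, 18 of 11784 genes passed in *Pax1* cells by edgeR's quasi-likelihood test with Benjamini-Hochberg adjustment, 8 higher and 10 lower, which was 0.153% of the genes tested. For none of the 18 did the difference between this change and that in *Pax1*-free mesenchyme of the same libraries pass (adjusted p of 0.44 or more, edgeR). Transcriptional regulators were among those that fell. *Prdm16* (chr4:154316125-154636873 in mm10), which encodes a zinc finger regulator of cell fate and was named after its values were seen, was at 60.4, 54.3 and 61.9 CPM in Wt, 31.6, 39.0 and 34.3 CPM in *E1C8*Δ/Δ and 35.0, 33.8 and 38.3 CPM in *E1C5*Δ/Δ libraries. Every mutant library lay below every Wt library, and the log2 fold change was -0.68 ± 0.10 (SE, adjusted p = 0.019, edgeR). It also fell by 0.46 in *Pax1*-free mesenchyme (log2, adjusted p = 0.0158, edgeR), and the difference between these changes did not pass (-0.23, adjusted p = 0.44, edgeR).

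*Osr2* (chr15:35296098-35303305), a zinc finger gene of connective tissue and joints, was at 15.2, 14.5 and 4.90 CPM in Wt, 2.37, 4.69 and 3.62 CPM in *E1C8*Δ/Δ and 3.15, 4.54 and 2.65 CPM in *E1C5*Δ/Δ libraries. Wt replicate 3 lay only just above the mutants, and the groups did not overlap. The log2 fold change was -1.76 ± 0.27 (SE, adjusted p = 0.0268, edgeR), beside -1.90 in *Pax1*-free mesenchyme (adjusted p = 0.00309, edgeR). *Tfap2b*, an AP-2 transcription factor of distal progenitors, was at 2.79, 4.04 and 7.05 CPM in Wt, 0, 1.15 and 1.13 CPM in *E1C8*Δ/Δ and 0.685, 0 and 0.212 CPM in *E1C5*Δ/Δ libraries. It fell by 2.79 on the log2 scale (adjusted p = 0.0268, edgeR), with low counts of 128 UMIs over the Wt and 7 over the *E1C5*Δ/Δ libraries, a ratio of CPM of 11.8 with a 95% counting interval of 5.56 to 29.9. In *Pax1*-free mesenchyme it fell by 2.47 (adjusted p = 0.00036, edgeR). In *Pax1* cells *Tfap2b* passed the filter on low counts only with the Wt libraries.

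*Lbp*, the gene for the lipopolysaccharide-binding protein, had the largest fall among the genes named by the rule. It was at 5.15, 6.24 and 15.02 CPM in Wt, 0, 0.999 and 1.25 CPM in *E1C8*Δ/Δ and 1.78, 1.01 and 0.423 CPM in *E1C5*Δ/Δ libraries, with no overlap and a log2 fold change of -2.91 ± 0.42 (SE, adjusted p = 0.019, edgeR), beside -2.49 in *Pax1*-free mesenchyme (adjusted p = 0.00249, edgeR). *Nrsn2*, which encodes a neuronal vesicle membrane protein, fell by 2.32 on the log2 scale (adjusted p = 0.0412, edgeR), from 2.25 to 5.52 CPM in Wt to 0.212 to 0.822 CPM in the mutants. In *Pax1* cells *Lbp* and *Nrsn2*, like *Tfap2b*, passed the filter on low counts only with the Wt libraries, where they were higher. *Eif3j2* fell by 2.64 (adjusted p = 0.0268, edgeR), but shares near-identical sequence with *Eif3j1*, so that its counts are uncertain.

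Of the 10 genes that fell, 9 had every mutant library below every Wt library, the tenth being *Mmrn2*. Over all genes tested, 2.21% had every mutant library below every Wt library and 1.51% every mutant library above, whatever their p. Besides the genes above, those that fell were *Dph6*, *Ahnak* and *Chd3*, with log2 fold changes of -0.69, -0.70 and -0.58. These 3 and *Mmrn2* were named after their values were seen.

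Of the 8 genes that were higher in the mutants, 7 reached their highest levels in *E1C8*Δ/Δ. *Snhg15*, a host gene of small nucleolar RNAs, was the only one without overlap, at 13.2, 13.4 and 6.13 CPM in Wt, 40.3, 35.0 and 41.1 CPM in *E1C8*Δ/Δ and 15.5, 15.9 and 15.2 CPM in *E1C5*Δ/Δ libraries. The *E1C8*Δ/Δ libraries lay far above both other genotypes, and the log2 fold change of the mutants was 1.08 ± 0.18 (SE, adjusted p = 0.0311, edgeR), beside 1.02 in *Pax1*-free mesenchyme (adjusted p = 0.0168, edgeR). *Snhg1*, *Snhg5*, *Snhg12*, *Rabggtb*, *Gm11361* and *5430416N02Rik*, named after their values were seen, rose by log2 fold changes of 0.86, 1.29, 0.87, 0.76, 1.31 and 1.01, and all 6 overlapped between *E1C5*Δ/Δ and Wt. Each of these 7 was higher in *E1C8*Δ/Δ than in *E1C5*Δ/Δ as well, by log2 differences of 0.79 to 1.92. *Gm3636*, the last, had 0 UMIs in Wt and 56 in the mutants, all outside *E1C8*Δ/Δ replicate 1, which is at least 13.7-fold higher over a floor of 3 UMIs in the Wt libraries together. *Gm3636* passed the filter on low counts only with mutant libraries, where it was higher.

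The number of calls rested on single libraries. Without *E1C8*Δ/Δ replicate 1, with its 26 *Pax1* cells, 0 genes passed (edgeR, 1263 genes at an unadjusted p under 0.05), and without Wt replicate 3, with its 47, 1 gene passed. It was 6 without Wt replicate 1, 10 without Wt replicate 2 and 11 without *E1C5*Δ/Δ replicate 1. With a term for embryo sex 0 passed (edgeR, 885 genes at an unadjusted p under 0.05), against 70 by DESeq2 without that term and 1457 at an unadjusted p under 0.05 in the main test.

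**Figure D4:**
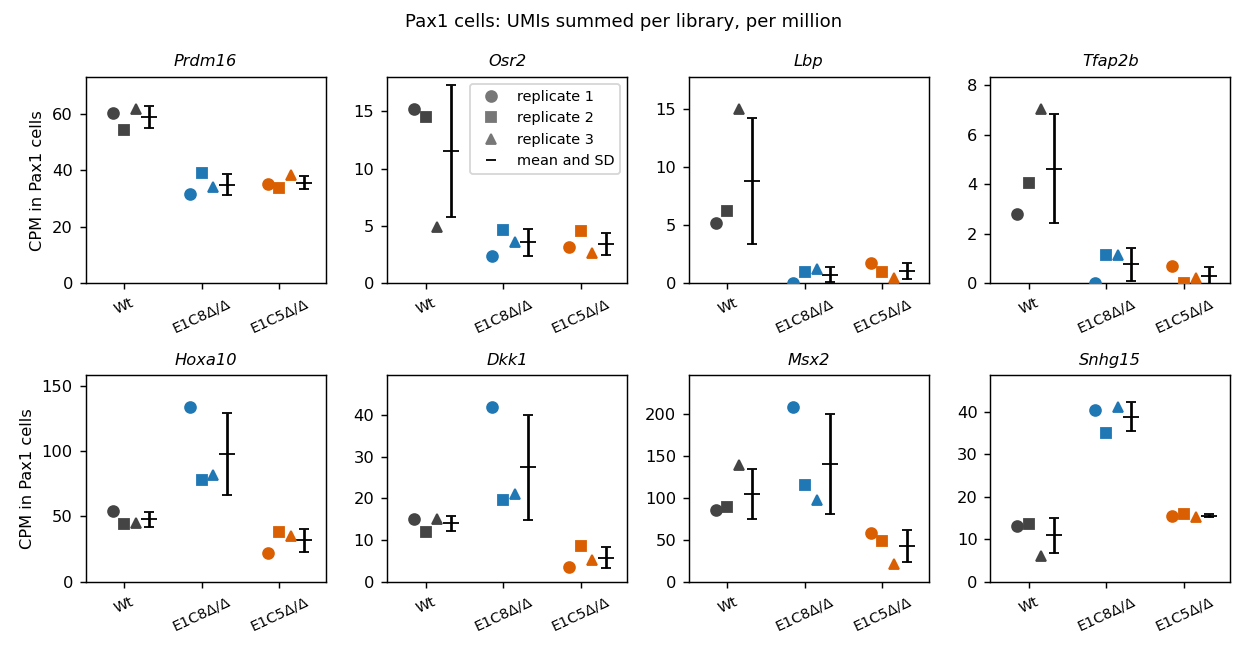
CPM of 8 genes in *Pax1* cells, with 1 point per library, its shape giving the replicate, and the mean and SD of 3 libraries in black. *Prdm16*, *Osr2*, *Lbp* and *Tfap2b* lie lower in all 6 mutant libraries than in all Wt libraries, *Hoxa10* and *Dkk1* are higher in *E1C8*Δ/Δ than in *E1C5*Δ/Δ without overlap, and *Snhg15* is highest in *E1C8*Δ/Δ. Bars that would reach below 0 CPM are cut at 0.

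The genes by which *Pax1* cells are recognized did not pass. *Alx4* was at 74.9, 75.3 and 75.1 CPM in Wt, 59.3, 67.1 and 53.9 CPM in *E1C8*Δ/Δ and 54.5, 55.2 and 60.01 CPM in *E1C5*Δ/Δ libraries. Every mutant library lay below every Wt library, yet the log2 fold change of -0.33 ± 0.09 (SE) had an adjusted p of 0.189 (edgeR). *Runx2* was at 55.7, 47.9 and 51.2 CPM in Wt, 59.3, 45.6 and 30.3 CPM in *E1C8*Δ/Δ and 32.2, 32.5 and 46.8 CPM in *E1C5*Δ/Δ libraries, with overlap and a log2 fold change of -0.34 (adjusted p = 0.389, edgeR). *Hoxb5* had a log2 fold change of -0.12 (adjusted p = 0.718, edgeR). *Gsc* was at 60.1, 80.6 and 133 CPM in Wt, 57.0, 82.3 and 66.1 CPM in *E1C8*Δ/Δ and 39.8, 49.9 and 22.5 CPM in *E1C5*Δ/Δ libraries, with a log2 fold change of -0.78 ± 0.24 (SE, adjusted p = 0.238, edgeR). It passed in 1 of 19 alternatives, that with no filter on low counts (adjusted p = 1.86e-08, edgeR).

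Pathway lists had few or no genes past the test in the mutants. In the lists of BMP ligands, BMP antagonists, BMP receptors, BMP response genes, hedgehog, FGF and WNT genes, 0 of 6, 9, 10, 13, 14, 17 and 24 genes tested passed by edgeR's quasi-likelihood test with Benjamini-Hochberg adjustment. At an unadjusted p under 0.05 they held 1, 1, 0, 3, 1, 2 and 1 genes, beside 1457 of all 11784 genes tested, and DESeq2 called 1 BMP response gene and none of the others. The median log2 fold changes were -0.32, -0.23, -0.14, -0.28, -0.13, -0.00295 and -0.05, beside -0.00164 over all genes tested. Of the anterior proximal genes that the study chose on these samples, 0 of the 10 other than *Pax1* passed (edgeR, 3 at an unadjusted p under 0.05, 0 by DESeq2), and their median was -0.07. The genes that passed on other lists were *Osr2* of 15 tendon and connective tissue genes and *Tfap2b* of 8 distal progenitor genes tested, beside 0.153% of all genes tested. At an unadjusted p under 0.05 these lists held 8 and 3 genes, and DESeq2 called 1 and 0.

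Against Wt, *E1C8*Δ/Δ *Pax1* cells had 161 genes past the test, 78 higher and 83 lower, or 1.37% of the genes tested (edgeR's quasi-likelihood test with Benjamini-Hochberg adjustment). Of the 9 posterior *Hox* genes tested, *Hoxa9*, *Hoxa10* and *Hoxa11* rose and none fell. *Hoxa10*, which patterns the upper and middle limb, was at 54.2, 44.0 and 44.7 CPM in Wt and 134, 77.7 and 81.7 CPM in *E1C8*Δ/Δ libraries, a log2 fold change of 0.99 ± 0.20 (SE, adjusted p = 0.0298, edgeR). *Hoxa9* rose by 0.74 (adjusted p = 0.0152) and *Hoxa11* by 1.11 (adjusted p = 0.0457, edgeR). The *E1C8*Δ/Δ values of these 3 genes lay above every Wt value, and all 3 genes were highest in *E1C8*Δ/Δ replicate 1. *Hoxa9* passed in 13 of 19 alternatives and *Hoxa10* and *Hoxa11* in 8 each, and the log2 fold change of *Hoxa13* was -1.03 (adjusted p = 0.244, edgeR).

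Of 24 WNT pathway genes tested 1 rose, of 13 BMP response genes 1 rose, and none fell on either list, beside 1.37% of all genes called in either direction. *Frzb*, a secreted WNT antagonist of cartilage, was at 11.8, 9.71 and 12.9 CPM in Wt and 36.4, 18.9 and 20.9 CPM in *E1C8*Δ/Δ libraries, a log2 fold change of 1.05 ± 0.23 (SE, adjusted p = 0.0379, edgeR). *Bambi*, a BMP pseudoreceptor and BMP target, rose by 0.56 (adjusted p = 0.0379, edgeR). *Frzb* passed in 8 and *Bambi* in 6 of 19 alternatives. *Mki67*, a proliferation marker, fell by 0.74 (adjusted p = 0.0101, edgeR), as the only 1 of 16 cell cycle genes tested to pass, and the median log2 fold change of that list was -0.01. The 161 calls became 63 without Wt replicate 1, 33 without Wt replicate 2, 35, 19 and 80 without *E1C8*Δ/Δ replicates 1, 2 and 3, and 316 without *E1C5*Δ/Δ replicate 3. They became 16 with a term for embryo sex, 56 with the replicate number as a block and 17 without the 2 libraries that held fewer than 50 *Pax1* cells. The lower depth of *E1C8*Δ/Δ cells moved with this comparison, and its part was not tested.

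Against Wt, *E1C5*Δ/Δ *Pax1* cells had 18 genes past the test, 4 higher and 14 lower, or 0.153% of the genes tested (edgeR's quasi-likelihood test with Benjamini-Hochberg adjustment). Of the 8 distal progenitor genes tested, *Tfap2b*, *Hoxa13* and *Hoxd13* fell and none rose. *Tfap2b* and *Hoxa13* passed the filter on low counts only with the Wt libraries, where they were higher. *Hoxd13* was at 7.51, 9.30 and 12.6 CPM in Wt and 1.78, 3.78 and 3.28 CPM in *E1C5*Δ/Δ libraries, a log2 fold change of -1.69 ± 0.28 (SE, adjusted p = 0.0317, edgeR). In *Pax1*-free mesenchyme it was at 32.1, 31.8 and 44.6 CPM in Wt and 20.2, 18.6 and 24.9 CPM in *E1C5*Δ/Δ libraries. Whether the change in *E1C5*Δ/Δ alone differed between these populations was not tested. *Hoxa13*, which marks digit-forming mesenchyme, was at 2.47, 1.43 and 2.45 CPM in Wt and 0.137, 0 and 0.212 CPM in *E1C5*Δ/Δ libraries (adjusted p = 0.0436, edgeR). With 59 and 3 UMIs, its ratio was 12.7 with a 95% counting interval of 4.13 to 63.2. *Hoxa13* passed in 2 and *Tfap2b* in 6 of the 17 alternatives in which they were tested, and *Hoxd13* in 6 of 19.

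Other genes among these 18, named after their values were seen, were *Mab21l2* and *Mab21l1*, related genes of limb and eye development. *Mab21l2* was at 68.5, 60.1 and 65.0 CPM in Wt, 87.8, 90.6 and 80.5 CPM in *E1C8*Δ/Δ and 9.17, 31.5 and 24.8 CPM in *E1C5*Δ/Δ libraries, so that *E1C5*Δ/Δ was lowest without overlap, at a log2 fold change of -1.57 ± 0.26 against Wt (SE, adjusted p = 0.0317, edgeR). *Mab21l1* fell by 1.31 and *Bcl11a*, a zinc finger repressor, by 0.78 on the log2 scale, while *Metrn*, a secreted neurotrophic factor, rose by 0.75 (adjusted p = 0.0317 each, edgeR). The 18 calls became 0 with a term for embryo sex (edgeR, 654 genes at an unadjusted p under 0.05), 0 with the replicate number as a block (edgeR, 787 genes at an unadjusted p under 0.05) and 49 by DESeq2. Leaving out 1 library gave 0 calls without *E1C8*Δ/Δ replicate 3 (edgeR, 799 genes at an unadjusted p under 0.05), 1 without Wt replicate 3, 2 without Wt replicate 2 or *E1C5*Δ/Δ replicate 1 or 3, 5 without *E1C5*Δ/Δ replicate 2 or *E1C8*Δ/Δ replicate 2, 6 without Wt replicate 1 and 11 without *E1C8*Δ/Δ replicate 1. Both comparisons used the same Wt libraries. In each of them *Prdm16*, *Lbp*, *Osr2* and *Gm3636* passed. The log2 fold changes of the first 3 were -0.70, -2.93 and -1.62 in *E1C8*Δ/Δ and -0.67, -2.89 and -1.90 in *E1C5*Δ/Δ. *Lbp* passed the filter on low counts only with the Wt libraries, and *Gm3636* only with mutant libraries, where each was higher.

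The 2 mutants differed from each other in 205 genes, 1.74% of those tested, 103 higher and 102 lower in *E1C8*Δ/Δ, a count that includes *Pax1*, by whose UMIs the cells were chosen (edgeR's quasi-likelihood test with Benjamini-Hochberg adjustment). The Wt libraries enter it only through the shared filter, normalization and estimate of spread, and each mutant had 2 libraries with high and 1 with low *Xist*. Of the 22 anterior and thoracic *Hox* genes tested 1 passed. Of the 9 posterior *Hox* genes tested, *Hoxa9*, *Hoxa10*, *Hoxa11* and *Hoxd13* were higher in *E1C8*Δ/Δ and none was lower. *Hoxa10* (chr6:52231197-52240854) was at 134, 77.7 and 81.7 CPM in *E1C8*Δ/Δ and 21.6, 38.3 and 34.9 CPM in *E1C5*Δ/Δ libraries, with a log2 difference of 1.56 ± 0.21 (SE, adjusted p = 0.00297, edgeR), and the groups did not overlap. In *Pax1*-free mesenchyme the log2 difference of *Hoxa10* was 0.40 (adjusted p = 0.0141, edgeR). *Hoxb5* and *Hotairm1* were lower in *E1C8*Δ/Δ, by log2 differences of -0.68 and -1.14 (adjusted p = 0.0406 and 0.0479, edgeR).

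Of 24 genes of the WNT pathway tested, 5 were higher in *E1C8*Δ/Δ and none was lower, beside 1.74% of all genes called in either direction. At an unadjusted p under 0.05 this list held 12 genes, beside 2035 of all 11784 genes tested (edgeR). *Dkk1* (chr19:30545863-30549665), a secreted WNT antagonist, was at 41.9, 19.5 and 20.9 CPM in *E1C8*Δ/Δ and 3.56, 8.57 and 5.08 CPM in *E1C5*Δ/Δ libraries, with Wt between them at 15.1, 11.8 and 15.02 CPM. Its log2 difference was 2.15 ± 0.30 (SE, adjusted p = 0.0036, edgeR). *Frzb* differed by 1.35 (adjusted p = 0.0142, edgeR), *Notum*, an enzyme that inactivates WNT proteins, by 1.53 (adjusted p = 0.0439, edgeR), and the ligands *Wnt11* and *Wnt5a* by 1.90 and 0.69 (adjusted p = 0.0148 and 0.0428, edgeR).

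Of 13 BMP response genes tested, *Msx2* and *Bambi* were higher in *E1C8*Δ/Δ and none was lower, beside 1.74% of all genes called in either direction. At an unadjusted p under 0.05 this list held 10 genes, beside 2035 of all 11784 genes tested (edgeR). *Msx2*, a homeodomain gene induced by BMPs, was at 208, 116 and 97.4 CPM in *E1C8*Δ/Δ, 58.1, 48.2 and 20.9 CPM in *E1C5*Δ/Δ and 85.7, 89.3 and 139 CPM in Wt libraries. The 2 mutants did not overlap, *E1C8*Δ/Δ overlapped with Wt, *E1C5*Δ/Δ lay below every Wt value, and the log2 difference of the mutants was 1.64 ± 0.35 (SE, adjusted p = 0.0331, edgeR). In *Pax1*-free mesenchyme the mutants did not overlap either, with *Msx2* at 41.9, 50.9 and 41.6 CPM in *E1C8*Δ/Δ and 21.6, 31.5 and 25.9 CPM in *E1C5*Δ/Δ libraries. Whether the difference between the mutants itself differed between these populations was not tested. *Irx3*, of the proximal list, was lower in *E1C8*Δ/Δ by a log2 difference of -0.67 (adjusted p = 0.0406, edgeR), and *Disp1*, which releases hedgehog ligands, by -0.85 (adjusted p = 0.0316, edgeR). The distal genes *Hey1* and *Lmo2* were higher by 1.45 and 1.29 (adjusted p = 0.0221 and 0.0194, edgeR).

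The depth per cell also differed between the mutants without overlap, and its part in these differences was not tested. With *Pax1* cells taken at 1 UMI after thinning to 10000 UMIs, 225 genes differed. With a term for embryo sex 146 differed and with the replicate block 67. The 205 became 324 without Wt replicate 3, 97, 95 and 133 without *E1C5*Δ/Δ replicates 1, 2 and 3, and 61, 25 and 100 without *E1C8*Δ/Δ replicates 1, 2 and 3. *Hoxa9*, *Hoxa10* and *Dkk1* passed in all 19 alternatives computed, *Frzb* in 18 and *Wnt11* in 17. *Msx2* passed in 14, *Hoxa11*, *Wnt5a*, *Hoxb5* and *Irx3* in 9 each, *Notum* in 8 and *Hoxd13* in 6.

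Whether a change in the mutants differed between populations was tested as the difference between the change in *Pax1* cells and that in *Pax1*-free mesenchyme of the same libraries. It passed for 8 of 13129 genes, 0.0609% of those tested (edgeR's quasi-likelihood test with the library as a block, Benjamini-Hochberg adjustment), and 738 were at an unadjusted p under 0.05. *Rspo4* (chr2:151842927-151874668), a secreted enhancer of WNT signalling on the lists of the study's anterior proximal and peripheral progenitor genes, was at 67.0, 50.8 and 54.6 CPM in Wt, 49.8, 45.7 and 48.3 CPM in *E1C8*Δ/Δ and 64.5, 53.5 and 59.5 CPM in *E1C5*Δ/Δ *Pax1* cells. In *Pax1*-free mesenchyme it was at 17.3, 9.91 and 5.93 CPM in Wt, 21.7, 20.1 and 19.0 CPM in *E1C8*Δ/Δ and 21.3, 26.4 and 31.2 CPM in *E1C5*Δ/Δ libraries. In *Pax1* cells *E1C5*Δ/Δ overlapped with Wt, while every *E1C8*Δ/Δ library lay below every library of the other genotypes. In *Pax1*-free mesenchyme every mutant library lay above every Wt library, with an adjusted p of 0.0569 there (edgeR).

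The log2 fold change of *Rspo4* in the mutants was -0.08 in *Pax1* cells and 1.03 in *Pax1*-free mesenchyme, and the difference was -1.10 ± 0.16 (SE, adjusted p = 0.0105, edgeR). *Zfp503*, a zinc finger corepressor, had log2 fold changes of -0.09 and 0.40, with a difference of -0.48 ± 0.06 (SE, adjusted p = 0.00552, edgeR). It was at 107 to 158 CPM in *Pax1* cells and at 53.0 to 98.4 CPM in *Pax1*-free mesenchyme over all libraries. *Pkdcc*, a secreted kinase of skeletal development, had log2 fold changes of -0.10 and 0.53, with a difference of -0.62 ± 0.09 (SE, adjusted p = 0.0105, edgeR). *Cdo1*, the enzyme that oxidizes cysteine, differed by -0.43 ± 0.07 (SE, adjusted p = 0.0105, edgeR), and the difference of *Hotairm1* was -0.84 (adjusted p = 0.0216, edgeR).

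The other 3 genes were *Ppbp*, *Cttnbp2* and *Gm15594*, named like *Zfp503* and *Cdo1* after their values were seen. *Ppbp*, a platelet chemokine, had 64 UMIs over all *Pax1* cells, 53 of them in Wt, and was at 4.61 CPM in Wt replicate 1 and at most 0.92 CPM elsewhere. *Gm15594* is annotated antisense within *Cttnbp2*, so that the counts of both are uncertain, and the differences of *Cttnbp2* and *Gm15594* were 0.80 and 1.02 (adjusted p = 0.038 and 0.0211, edgeR). *Rspo4* and *Zfp503* passed in 14 of 15 alternatives. None of these alternatives held a term for embryo sex or another *Pax1* threshold. Against *Pax1*-free cells with at least 3 *Hoxd13* UMIs, the differences of *Rspo4* and *Zfp503* were -1.50 and -0.54 (adjusted p = 0.018 and 0.0098, edgeR). With these cells 11 genes passed, of which only 3 were among the 8. Without Wt replicate 1, 1 gene passed in place of 8, and 13 and 15 passed without replicate 1 of *E1C5*Δ/Δ and of *E1C8*Δ/Δ.

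**Figure D5:**
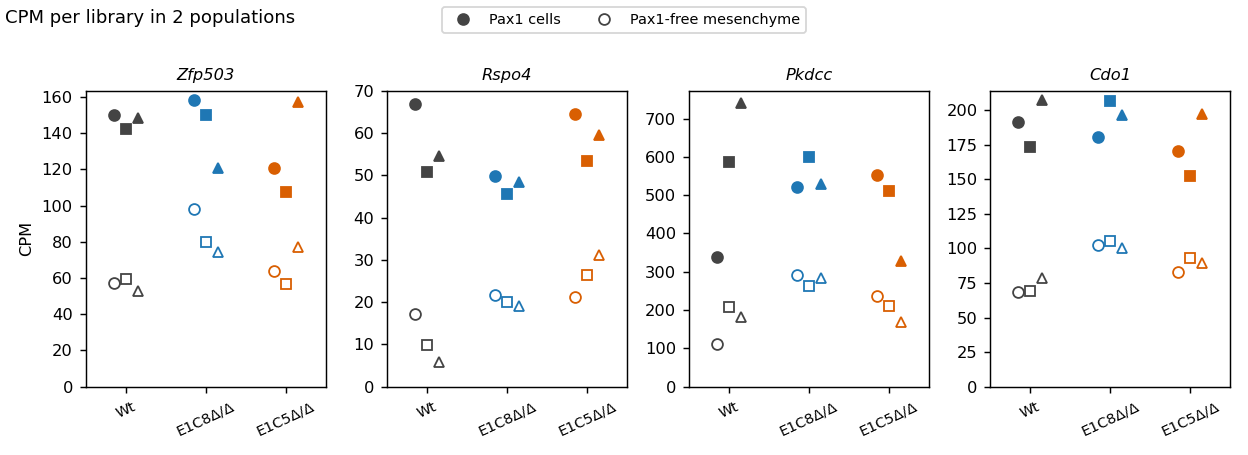
CPM of *Zfp503*, *Rspo4*, *Pkdcc* and *Cdo1* per library in *Pax1* cells (filled) and *Pax1*-free mesenchyme (open), with the shape giving the replicate. All 4 are higher in *Pax1* cells in every library, and for *Rspo4* every mutant library lies above every Wt library in *Pax1*-free mesenchyme (19.0 to 31.2 against 5.93 to 17.3 CPM).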

How the data were processed

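Single cells of forelimb bud pairs were profiled by droplet-based (10x) RNA-seq in 9 libraries, 3 per genotype, grouped by the submitters' labels. The authors deposited UMI counts per gene and barcode for each library, with no normalization, and per the labels these came from Cell Ranger 6.0.1 on mm10, with Seurat 4.3.0.1 also named. Per library the files summed to 26620760 to 500559729 UMIs and the *Pax1* cells to 1264053 to 19561212.

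*Pax1* cells were chosen by the stated rule, and 37 *Shh*-positive, 624 barcodes positive for another lineage's marker and 12 low in *Prrx1* were left out despite 3 or more *Pax1* UMIs. The members and gene lists were chosen with earlier results of these data known. Sums of counts over the cells of each library entered edgeR 4.0.16 (TMM, filterByExpr, quasi-likelihood, Benjamini-Hochberg adjustment over all genes tested, threshold 0.05) in 1 fit of 9 libraries without a replicate block. The comparisons were the mean of both mutants, each mutant against Wt and the mutants against each other. The difference between populations was a population by mutant term with the library as block. Of 32289 features, 32158 were matched to GENCODE M21, and 1809 on the X or Y chromosome and 4 transgene features were left out. A population needed 20 cells in a library. Shares were compared by exact permutation. Ratios used CPM with a pseudocount of 1.

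Named genes were the rule's markers, members of the lists, the 5 largest changes per direction in mutants against Wt that passed without overlap, and the 15 largest ratios to *Pax1*-free mesenchyme at 20 CPM or more. Doublets were scored with Scrublet in scanpy 1.11.5. Its automatic threshold called 0 to 4 barcodes in 6 libraries and 8857 of 9076 in *E1C8*Δ/Δ replicate 3, so the highest scores were called instead at 0.8% per 1000 barcodes. Doublets were kept in the main analysis. DESeq2 1.42.0, other filters, thresholds and left-out libraries were tried as alternatives. The script was tested on simulated counts for the mutants against Wt: of 200 genes among 11784 changed by a log2 fold of 1, 85% were recovered, with 20 false calls. Intervals and floors cover counting error only. Results for some genes are not reported here.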

Additional observations from a re-analysis of the deposited data

Results flagged for a closer look

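The genotype change differed between *Pax1* cells and *Pax1*-free mesenchyme in 8 genes by a test of the difference itself. The log2 differences were -0.48 for *Zfp503*, -1.10 for *Rspo4*, -0.62 for *Pkdcc*, -0.43 for *Cdo1*, -0.84 for *Hotairm1*, -3.96 for *Ppbp*, 1.02 for *Gm15594* and 0.80 for *Cttnbp2*.

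The libraries of the 2 mutants differed from each other in *Pax1* cells in 205 genes, again by a test of the difference, a count that includes *Pax1*. Depth per cell also differed between the mutants without overlap, and its part was not tested. Among the named genes, *E1C8*Δ/Δ was higher than *E1C5*Δ/Δ by log2 differences of 0.84 for *Hoxa9*, 1.56 for *Hoxa10*, 1.10 for *Hoxa11* and 1.29 for *Hoxd13*. The WNT genes *Dkk1*, *Frzb*, *Wnt11*, *Notum* and *Wnt5a* were higher by 2.15, 1.35, 1.90, 1.53 and 0.69. *Msx2*, *Bambi*, *Hey1*, *Lmo2*, *Nrp2* and *Ier2* were higher by 1.64, 0.68, 1.45, 1.29, 0.83 and 0.63. The noncoding and host genes *Snhg1*, *Snhg5*, *Snhg12* and *Snhg15* were higher by 1.04, 1.63, 1.36 and 1.29, and *Gm11361*, *5430416N02Rik* and *Rabggtb* by 1.92, 1.39 and 0.79. The genes lower in *E1C8*Δ/Δ were *Mki67*, *Disp1*, *Irx3*, *Hoxb5* and *Hotairm1*, with differences of -0.65, -0.85, -0.67, -0.68 and -1.14.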

How the results depend on the processing

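Calls were counted by edgeR's quasi-likelihood test unless another tool is named, and the cause of the shifts below was not tested. The 18 calls of the mutants against Wt became 337 with no filter on low counts, 70 by DESeq2, 0 with a term for embryo sex (885 at an unadjusted p under 0.05), 8 without called doublets, 1 without the 2 libraries of fewer than 50 *Pax1* cells, and 0 to 23 without 1 library. For *E1C8*Δ/Δ against Wt, 161 became 682, 383, 16, 108 and 17 under these settings, and 19 to 316 without 1 library. For *E1C5*Δ/Δ against Wt, 18 became 308, 49, 0 (654 at an unadjusted p under 0.05), 8 and 1, 3 with *Pax1* at 5 UMIs, and 0 to 11 without 1 library. For *E1C8*Δ/Δ against *E1C5*Δ/Δ, 205 became 783, 326, 146, 99 and 112, 112 with *Pax1* at 5 UMIs, and 25 to 324 without 1 library. The 8 differences between populations became 135 with no filter, 14 by DESeq2, 5 without doublets, 15 without the small libraries, and 1 to 15 without 1 library. Against *Pax1*-free cells with *Hoxd13* 11 genes passed, of which 3 were among the 8. A term for embryo sex was not tried for this comparison. DESeq2's size factors in edgeR moved no count by over 1.5 times. The alternatives without the small libraries and with *Pax1* at 1 UMI after thinning were chosen after seeing the data.

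The difference in share of both mutants together reversed to 0.111 points with 2 thinned *Pax1* UMIs and kept its sign in the other 16 alternatives (-2.22 to -0.304 without 1 library). That of *E1C8*Δ/Δ alone turned positive in some alternatives, among them both thinned ones (1.80 and 1.78 points). That of *E1C5*Δ/Δ alone stayed negative in all. *Pax1* in all mesenchyme kept its sign and stayed short of the threshold in all 15 alternatives (-1.04 to -0.14 without 1 library). The log2 fold change of *Hoxb5* in the mutants ranged from -0.225 to 0.00107 without 1 library, the last without Wt replicate 1. Of the 337 alternative values of the 18 genes called in the mutants, 158 lost the call and none reversed.

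Replicate numbers did not pair the libraries: over 9 pairs with the same number the deviations correlated at -0.189 to 0.0541. With the replicate number as a block, the calls were 1 in the mutants, 56 in *E1C8*Δ/Δ, 0 in *E1C5*Δ/Δ (787 at an unadjusted p under 0.05) and 67 between the mutants. Under the block the log2 fold change of *Pax1* in all mesenchyme was -0.76, and the share difference of -1.33 points had an exact permutation p of 0.519 over 27 splits.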
